A study of Mus musculus with 10 samples.

Results

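The SLAM family receptors are a group of leukocyte surface proteins of the immunoglobulin superfamily, and 9 of their genes were examined in haematopoietic stem cells (HSCs) of mouse bone marrow that carried an inducible Sox17 transgene. The genes were Slamf1, Cd48, Cd244a, Ly9, Cd84, Slamf6, Slamf7, Slamf8 and Slamf9, chosen by name, 9 of the 19938 genes that have a probe set of their own. Each was read from the probe set that lists it as its only gene symbol, and all 9 had exactly 1 such probe set among the 21789 probe sets with 1 gene symbol.

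The readings came from 10 Affymetrix Mouse Gene ST 1.0 microarrays. Of these, 5 held RNA of HSCs of Sox17-transgenic mice, which carried the transgene (tetO)7CMVSox17-IRES-NucEGFP along with the activator allele Gt(ROSA)26Sortm1(rtTA*M2)Jae, and 5 held RNA of HSCs of littermates labelled wild type. Mice of both groups were 8 weeks old and had drunk doxycycline at 2 mg/ml for 5 days. In the transgenic mice this drug lets the activator rtTA, placed at the broadly active ROSA26 locus, turn on Sox17 together with a nuclear green fluorescent protein. The labels do not say whether the littermates carried 1 of the transgenes, and they do not tie the arrays to individual animals. The p-values therefore cover only sample-to-sample spread, part of which may be technical.

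Each array was hybridised with amplified cDNA from 10000 cells whose gate required CD150, Sca1 and cKit on the surface and shut out cells with CD48 or lineage markers. CD150 is the protein of Slamf1. SLAM receptors mostly bind a copy of themselves on a neighbouring cell; CD48 is the exception that is anchored in the membrane by a lipid, and it binds CD244 and, in the mouse, CD2. Inside the cell the tails of several members recruit the small adaptor SAP and its relatives, which bring in the kinase Fyn, or phosphatases such as SHIP1. In mouse bone marrow the family is known as a surface code: HSCs carry CD150 and lack CD48 and CD244, while most committed progenitors carry CD48. The gate selects on proteins, and the arrays measure transcripts in cells that had already passed it.

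The arrays were split into a pair of sets by the sign of the first principal component of each array's departure from its group mean. With group means taken off, such a split puts arrays of both groups in each set by construction. Set A held transgenic arrays 1, 2 and 3 and wild-type arrays 1 and 2, and set B held the others. These sets come from the values and are no labelled batch. A fit with the sets as a block takes off spread that was used to form them, so its p-values are too small and count as no calls here. Xist was low (4.32) on transgenic array 4 and 10.80 or higher on all other arrays, while the Y-linked Eif2s3y read 9.23 there and at most 2.87 elsewhere, the pattern of a male sample. Without that array the log2 change was 1.34 for Cd48 (limma adjusted p = 0.290) and 0.48 for Ly9 (0.454). The Sox17 probe set read 4.25 to 4.51 log2 units in transgenic and 4.02 to 4.30 in wild-type HSCs, with limma adjusted p = 0.855, so each direction given here depends on the sample labels being right. Kit, the gene of the gate's cKit, read 9.22 to 9.74 in transgenic and 9.68 to 10.08 in wild-type HSCs. It stood at percentile 94.7 by mean level, and its log2 change was -0.47 (SE 0.12, limma adjusted p = 0.248). The gate required cKit protein, so a high Kit level is no check of the HSC label.

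The promoters of the pair of genes that define the gate, Slamf1 and Cd48, are shown because their transcripts are the ones the sort bears on. They run from 250 bases before to 50 bases after the start in RefSeq's table of build GRCm38.p6, at chr1:171766882-171767181 on the plus strand for Slamf1 and chr1:171681742-171682041 on the plus strand for Cd48. Capitals mark matches to any of 4 motifs, each searched on both strands. The letters were ACAAT for the core that SOX factors recognise. For RUNX factors the letters searched were TGTGGT. For ETS factors the search used the letters CCGGAA. For GATA factors the search used the letters AGATAA.
Slamf1: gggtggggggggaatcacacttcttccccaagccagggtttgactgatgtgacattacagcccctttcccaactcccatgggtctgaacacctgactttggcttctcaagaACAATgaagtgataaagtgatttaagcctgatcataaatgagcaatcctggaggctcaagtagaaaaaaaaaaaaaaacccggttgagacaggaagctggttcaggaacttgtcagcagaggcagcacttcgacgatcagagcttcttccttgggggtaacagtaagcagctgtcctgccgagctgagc
Cd48: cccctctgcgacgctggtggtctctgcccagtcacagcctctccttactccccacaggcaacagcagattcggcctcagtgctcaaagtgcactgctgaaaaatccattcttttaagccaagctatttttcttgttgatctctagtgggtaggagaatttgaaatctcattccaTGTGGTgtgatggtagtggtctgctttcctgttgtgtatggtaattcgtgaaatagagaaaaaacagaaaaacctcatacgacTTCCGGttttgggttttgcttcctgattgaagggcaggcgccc

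The Slamf1 promoter held 1 SOX core, beginning 139 bases before the start. In the Cd48 promoter there were 0 SOX cores, a RUNX match beginning 76 bases before the start and an ETS match on the minus strand beginning at base 8 after it. Of the 9 genes 8 had a promoter in the table, Ly9 being the other. The SOX core was in 5 of these 8, those of Slamf1, Cd244a, Slamf6, Slamf7 and Slamf8, and in 31% of the 32851 mouse promoters of the same length. The RUNX motif was in 2 of 8 (Cd48 and Cd84) against 16.8% of all promoters, the ETS motif in 1 of 8 against 14.9%, and the GATA motif in 0 of 8 against 11.2%. A match is a run of letters and not evidence of binding.

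The comparison between transgenic and wild-type HSCs asks whether induced Sox17 went with a different SLAM receptor profile within the same gate. Cd48, whose protein the gate excludes, and Ly9, which encodes CD229, had the largest differences of the family, while Slamf1 differed by less than the spread between arrays. Of the 9 members 0 passed the threshold of adjusted p under 0.05 (limma across 23410 probe sets, Benjamini-Hochberg), where 0.141% of all tested probe sets passed. At an unadjusted p under 0.05 there were 2 members, Cd48 and Ly9, both higher on the transgenic arrays, against 6.59% of all tested probe sets. The log2 change was positive for 6 members and negative for 3, with a median of 0.14, where 46.3% of all probe sets were positive and their median was -0.011.

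**Figure D1:**
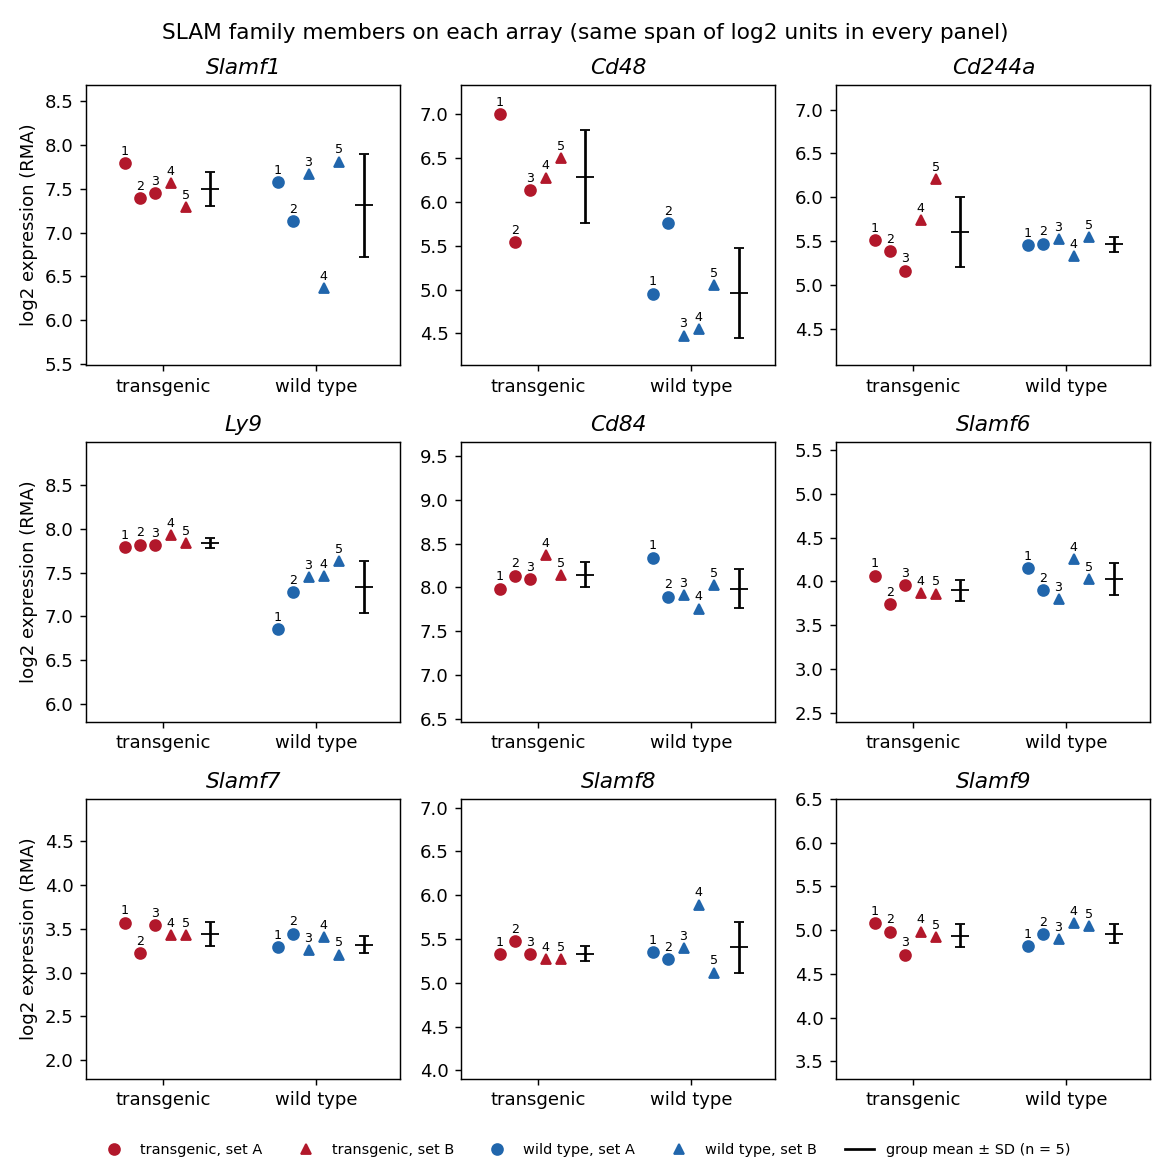
Log2 expression (RMA) of the 9 SLAM family genes on each array, transgenic in red and wild type in blue; numbers are replicate numbers, circles set A, triangles set B, and black bars the group mean ± SD (n = 5). Cd48 overlaps between the groups only through transgenic array 2 (5.54) and wild-type array 2 (5.76), and all 5 transgenic arrays lie above all 5 wild-type arrays for Ly9.

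Cd48, the ligand of CD244 and CD2 that is found on most blood cells other than HSCs, read 7.00, 5.54, 6.14, 6.28 and 6.50 log2 units on transgenic arrays 1 to 5. On wild-type arrays 1 to 5 it read 4.95, 5.76, 4.47, 4.54 and 5.05. On 4 of the 5 transgenic arrays Cd48 was above every wild-type array, and the overlap came from transgenic array 2, the lowest of its group, and wild-type array 2, the highest of its group. Cd48 averaged 6.29 ± 0.53 in transgenic and 4.96 ± 0.51 in wild-type HSCs (SD, n = 5 each). The log2 change of 1.34 (SE 0.29, 95% interval 0.70 to 1.97) corresponds to 2.52-fold, and its limma adjusted p of 0.145 missed the threshold. It was 0.87 among set A arrays and 1.70 among those of set B. Leaving out each array in turn gave changes of 1.16 (without transgenic array 1, adjusted p = 0.267) to 1.54 (without wild-type array 2, adjusted p = 0.0924). The adjusted p ran from 0.0563 without transgenic array 2 to 0.344 without wild-type array 4.

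The Cd48 probe set stood at percentile 46.8 by mean level. A higher mean in a sorted pool can come from more cells with the transcript or from more transcript per cell, and these cannot be told apart here. The array reports RNA, so it does not show whether CD48 protein was present on the sorted cells.

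Slamf1, the gene of the positively selected CD150, read 7.79, 7.40, 7.45, 7.57 and 7.29 on the transgenic arrays. It read 7.58, 7.13, 7.67, 6.36 and 7.81 on the wild-type arrays. The groups overlapped, with wild-type arrays 2 and 4 below every transgenic array and wild-type array 5 the highest of all. Slamf1 averaged 7.50 ± 0.19 in transgenic and 7.31 ± 0.59 in wild-type HSCs (SD, n = 5 each), a log2 change of 0.19 (SE 0.24, limma adjusted p = 0.958). Its 95% interval, -0.34 to 0.72, spans 0.788-fold to 1.65-fold, so a difference of that size is not shown to be absent. Without wild-type array 4 the wild-type mean was 7.55 ± 0.30 (n = 4) and the log2 change was -0.049.

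**Figure D2:**
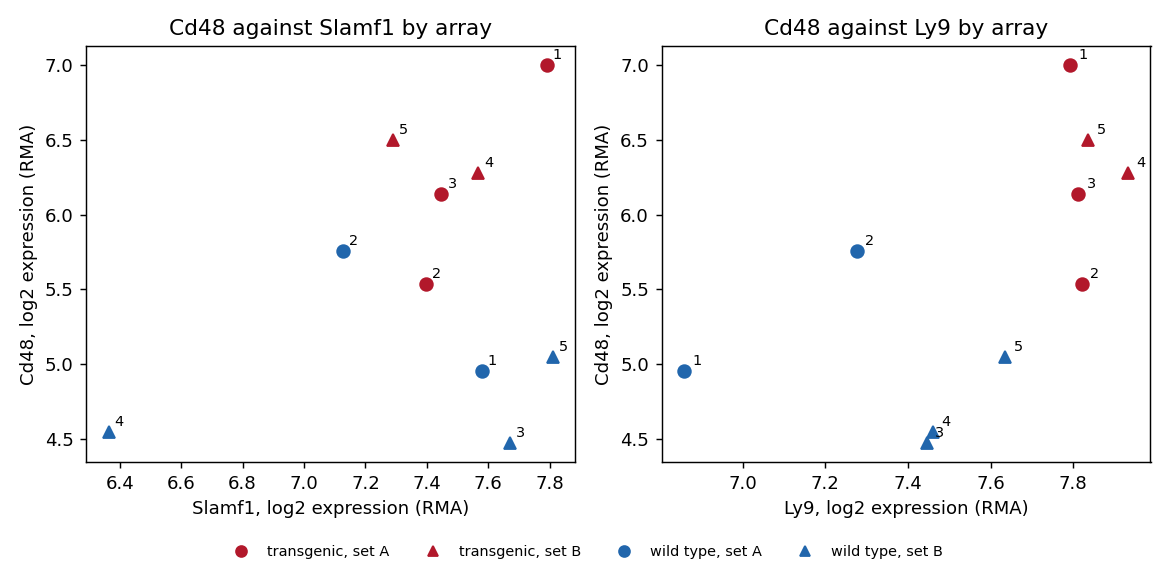
Cd48 against Slamf1 (left) and against Ly9 (right), log2 expression (RMA), 1 point per array labelled with its replicate number; transgenic arrays are red, wild-type arrays blue, circles set A and triangles set B. Most arrays of both groups lie between 7.13 and 7.81 on Slamf1, with wild-type array 4 at 6.36, while Ly9 runs from 7.79 to 7.93 in transgenic and from 6.86 to 7.64 in wild-type HSCs.

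Ly9 encodes CD229, a self-binding receptor that is used to divide multipotent progenitors and HSCs into fractions. It read 7.79, 7.82, 7.81, 7.93 and 7.84 on the transgenic arrays and 6.86, 7.28, 7.44, 7.46 and 7.64 on the wild-type arrays. All 5 transgenic arrays lay above all 5 wild-type arrays, which held for 1.47% of all tested probe sets in either direction. The transgenic arrays spanned 0.14 log2 units and the wild-type arrays 0.78. The log2 change was 0.50 (SE 0.13, 95% interval 0.22 to 0.79, 1.42-fold), short of the threshold (limma, adjusted p = 0.248). It was 0.74 among set A arrays, 0.37 among those of set B and 0.56 once the sets entered the fit as a block (adjusted p = 0.0654, too small by construction), a fit in which 0.389% of all probe sets were under 0.05. Wild-type array 1 was the lowest, and without it the change was 0.38 (adjusted p = 0.219).

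Cd244a, the gene of the CD48 receptor CD244, was less even on the transgenic arrays than on the wild-type arrays. It read 5.51, 5.39, 5.16, 5.74 and 6.21 on the transgenic arrays and 5.45, 5.47, 5.53, 5.33 and 5.54 on the wild-type arrays. Transgenic arrays 4 and 5, both of set B, lay above every wild-type array, and transgenic array 3 lay below every one. Cd244a averaged 5.60 ± 0.40 in transgenic and 5.46 ± 0.084 in wild-type HSCs (SD, n = 5 each), a log2 change of 0.14 (SE 0.17, limma adjusted p = 0.958). Its sign differed between the sets, at -0.11 among set A arrays and 0.51 among those of set B, and it was -0.015 without transgenic array 5. The difference between the sets was not tested.

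Cd84, a self-binding receptor of platelets, myeloid and lymphoid cells, read 7.99, 8.14, 8.09, 8.37 and 8.14 on the transgenic arrays. On the wild-type arrays it read 8.34, 7.89, 7.91, 7.76 and 8.03. Wild-type arrays 1 and 5 lay within the transgenic range and the other 3 below it, and the log2 change was 0.16 (SE 0.11, 95% interval -0.093 to 0.41, limma adjusted p = 0.917). Within set A it was -0.046 and within set B 0.36. Slamf1, Ly9 and Cd84 were the members whose mean level lay in the upper part of the array, at percentiles 76.4, 79.0 and 84.5.

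**Figure D3:**
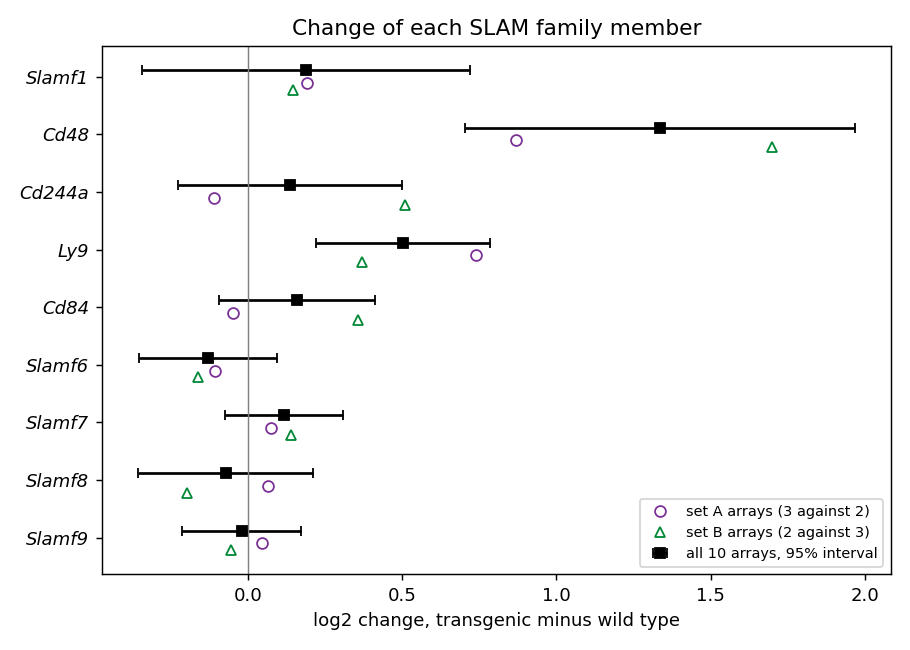
Log2 change, transgenic minus wild type, of each SLAM family gene: black squares with 95% intervals from limma over all 10 arrays, open circles the difference of means in set A (3 transgenic and 2 wild-type arrays), open triangles that in set B (2 and 3). Only the intervals of Cd48 (0.70 to 1.97) and Ly9 (0.22 to 0.79) leave out 0, before any adjustment for the number of probe sets.

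The remaining members are receptors of more mature cells. Slamf6, which encodes the Ly108 receptor of T, B and NK cells, read 3.74 to 4.06 in transgenic and 3.80 to 4.25 in wild-type HSCs, with a log2 change of -0.13 (SE 0.10). Slamf7, the receptor CRACC of NK and plasma cells, read 3.22 to 3.57 in transgenic and 3.20 to 3.45 in wild-type HSCs, with a change of 0.12 (SE 0.087). These probe sets stood at percentiles 18.0 and 9.78, where RMA compresses differences, so a change at such a level may not be detectable. Slamf8 and Slamf9 are family members found mainly in myeloid cells. Slamf8 read 5.27 to 5.47 in transgenic and 5.12 to 5.89 in wild-type HSCs (change -0.071, SE 0.13), and Slamf9 read 4.72 to 5.08 in transgenic and 4.82 to 5.08 in wild-type HSCs (change -0.020, SE 0.087). The groups overlapped for all 4 genes, with limma adjusted p of 0.921 to 0.994.

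Wild-type array 4 set the range of several members. It was the lowest wild-type array for Slamf1, Cd244a and Cd84 and the highest for Slamf6, Slamf8 and Slamf9, thus at an end of its group for 6 of the 9 genes. Transgenic array 1 was at an end of its group for 7 genes, highest for Slamf1, Cd48, Slamf6, Slamf7 and Slamf9 and lowest for Ly9 and Cd84. No array was at the same end for every member.

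Likeness between genes was measured with Pearson's r over the 10 arrays after the group means were taken off, as a description with no test. The genes most like Slamf1 were Vmn1r174, Eif2b5 and Vstm2a (r = 0.94 each). Each was lowest on wild-type array 4 among the wild-type arrays, Vmn1r174 at 3.24, Eif2b5 at 5.56 and Vstm2a at 2.85. The genes most like Cd48 were Gm14164 (r = 0.95), Grm5 (0.93) and Cacng7 (0.92). None of them passed the threshold between the groups (limma adjusted p of 0.809 to 0.931). Gm14164 read 3.83 to 4.50, Grm5 4.47 to 5.22 and Cacng7 5.07 to 5.61, all below the median mean level of 5.81. Within the family Slamf7, at percentile 9.78 by mean level, was the most like Cd48 (r = 0.65, and 0.80 without wild-type array 4). Between Cd48 and Slamf1 r was 0.20, between Cd48 and Ly9 -0.16, and between Slamf1 and Slamf8 -0.81. Wild-type array 4 was the lowest for Slamf1 and the highest for Slamf8, and without it that r was -0.17 over 9 arrays, while r between Cd48 and Slamf1 was -0.14. Without it r with Slamf1 was 0.76 for Vmn1r174, 0.74 for Eif2b5 and 0.78 for Vstm2a.

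The 9 genes share a stretch of chromosome 1, in the order Cd244a, Ly9, Slamf7, Cd48, Slamf1, Cd84 and Slamf6, with Slamf9 and Slamf8 farther along behind other genes. No source used here names the genome build of the array, so for this stretch the RefSeq table gave only the order of the genes. Of 29 named genes that RefSeq lists as protein-coding between them or among the 5 nearest on each side, 26 were measured. Of those 13 had a positive change, 0 passed the threshold (limma) and 0 had an unadjusted p under 0.05, with a median of -0.0015 and a range of -0.13 to 0.50. The highest was Pea15a, an adaptor of MAP kinase signalling, which averaged 7.37 ± 0.42 in transgenic and 6.86 ± 0.42 in wild-type HSCs (SD, n = 5 each). Its log2 change of 0.50 (SE 0.23, 95% interval -0.0095 to 1.02) was about as large as that of Ly9, with a wider interval. Slamf7 and Slamf1, the family members on either side of Cd48, had 95% intervals of -0.073 to 0.31 and -0.34 to 0.72, in that order.

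**Figure D4:**
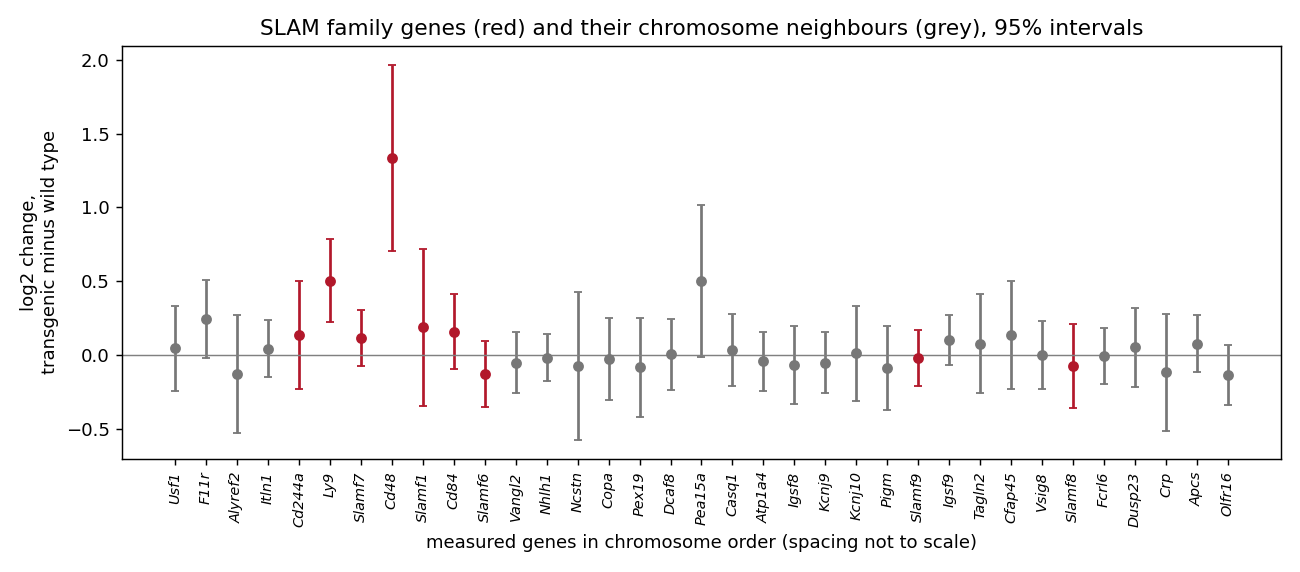
Log2 change, transgenic minus wild type, with 95% intervals from limma, for the measured genes around the SLAM family on chromosome 1 in chromosome order, not to scale; family members are red and neighbours grey. Cd48 at 1.34 and Ly9 at 0.50 stand beside neighbours between -0.13 and 0.50, the highest of which is Pea15a.

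Signalling genes downstream of the receptors were looked at next. Of 18 adaptors and effectors, all measured, 15 had positive and 3 negative changes with a median of 0.12, and 0 passed the threshold (limma). Over all tested probe sets 46.3% were positive. At an unadjusted p under 0.05 there were 2 of the 18, against 6.59% of all tested probe sets. Those were Plcg2, a phospholipase that acts below immune receptors, and Inpp5d, the phosphatase SHIP1. Plcg2 read 8.73, 8.25, 9.14, 8.85 and 8.57 on the transgenic arrays and 8.16, 8.01, 7.79, 7.46 and 7.77 on the wild-type arrays. The groups did not overlap, which held for 1.47% of all tested probe sets in either direction. The log2 change was 0.87 (SE 0.17, adjusted p = 0.112). Inpp5d read 8.46, 8.58, 8.76, 8.97 and 8.59 on the transgenic arrays and 8.22, 8.26, 8.29, 8.21 and 8.40 on the wild-type arrays, again without overlap, with a change of 0.40 (SE 0.099, adjusted p = 0.237). Prkcq, a protein kinase C of T cell receptor signalling, differed by 0.35 (SE 0.19).

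The adaptor genes themselves read near the floor. Sh2d1a, the gene of SAP, averaged 4.08 ± 0.19 in transgenic and 4.02 ± 0.036 in wild-type HSCs, at percentile 19.4. Sh2d1b1, which encodes the SAP relative EAT-2, averaged 3.03 ± 0.26 in transgenic and 2.92 ± 0.16 in wild-type HSCs, and Sh2d1b2 averaged 2.62 ± 0.097 in transgenic and 2.79 ± 0.20 in wild-type HSCs (SD, n = 5 each). Fyn averaged 8.23 ± 0.39 in transgenic and 8.35 ± 0.52 in wild-type HSCs (SD, n = 5 each). It was lower on all set A arrays than on all set B arrays, sets that were formed from these same data. Of CD2 and 3 genes of its partners 1 had a positive change, and 0 passed the threshold (limma). Cd2 read 4.14 on average in both groups. Cd2ap, an adaptor that binds the CD2 tail, averaged 8.91 ± 0.27 in transgenic and 8.21 ± 0.23 in wild-type HSCs (change 0.70, SE 0.15, adjusted p = 0.132). It was the 1 gene of this list with an unadjusted p under 0.05, against 6.59% of all tested probe sets. Cd2bp2 and Pstpip1 each differed by -0.14.

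Since CD48 protein marks cells outside the gate, markers of other cells were set beside the Cd48 values. Of 11 measured progenitor surface genes outside the family 5 had positive changes and 0 passed the threshold (limma). Flt3 and Cd27, 2 of the 11, had an unadjusted p under 0.05, against 6.59% of all tested probe sets. Flt3, the receptor of multipotent progenitors, read 8.58, 7.57, 8.57, 8.99 and 9.24 on the transgenic arrays and 7.44, 7.13, 7.48, 6.14 and 7.10 on the wild-type arrays. As with Cd48, transgenic array 2 was the lowest of its group, here above all wild-type arrays (change 1.53, SE 0.32, adjusted p = 0.132). Groups without overlap were found for 1.47% of all tested probe sets in either direction. Over the arrays, group means taken off, r with Cd48 was 0.45 for Flt3 (place 2292 of 19937 genes), 0.11 for Cd53, -0.052 for Kit and -0.43 for Procr. The summed linear level of the list ran from 2384 to 3178 in transgenic and from 2108 to 2439 in wild-type HSCs. Cd27 and Cd34 differed by 0.25 (SE 0.10) and 0.19 (SE 0.11).

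Of 13 measured stem cell markers outside the family 6 had positive changes and 0 passed (limma). At an unadjusted p under 0.05 there were 5 higher and 2 lower, against 6.59% of all tested probe sets. The lowest p were those of Vwf (change 1.28, adjusted p = 0.110), the platelet-biased marker, Itga2b (-0.78, adjusted p = 0.245), which encodes CD41, and Procr (1.08, adjusted p = 0.247), which encodes the HSC marker EPCR. The summed level ran from 4280 to 4822 in transgenic and from 4072 to 4734 in wild-type HSCs. Of 8 pan-leukocyte genes 7 had positive changes, and 3, all positive, had an unadjusted p under 0.05. Cd53, a tetraspanin of leukocytes, passed the threshold. It rose by 2.78 log2 units, reading 8.44 to 9.75 in transgenic and 5.76 to 7.59 in wild-type HSCs (limma, adjusted p = 0.0104). Among the tested probe sets 0.12% passed higher on the transgenic arrays and 0.0214% lower. The pan-leukocyte sum ran from 4970 to 5725 in transgenic and from 3132 to 4305 in wild-type HSCs.

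Markers of lymphoid cells were not higher as lists on the transgenic arrays. The median log2 change was -0.046 for T and NK cell markers and -0.020 for B and plasma cell markers. Of 11 measured T and NK cell markers 2 had positive changes and 0 passed (limma). An unadjusted p under 0.05 was held by 2 of the 11, 1 higher and 1 lower, against 6.59% of all tested probe sets. The summed level was 273 to 391 in transgenic and 380 to 509 in wild-type HSCs. In this list Nkg7, a cytotoxic granule gene, had the highest mean in each group and so weighed most in the sum. It averaged 6.40 log2 units in transgenic and 7.57 in wild-type HSCs. Nkg7 differed by -1.17 (limma adjusted p = 0.218), Klrb1c by 0.79 (adjusted p = 0.557) and Ncr1 by -0.19. Of 10 measured B and plasma cell markers 5 had positive changes, 0 passed (limma) and 1 had an unadjusted p under 0.05. The sum was 344 to 480 in transgenic and 402 to 560 in wild-type HSCs. Vpreb1, of the surrogate light chain, had the highest mean of this list in each group, 6.83 in transgenic and 7.66 in wild-type HSCs. Vpreb1 differed by -0.83, Igll1 by 0.15 and Cr2 by 0.15.

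Among myeloid markers, 9 of 12 measured granulocyte and monocyte genes had positive changes and 0 passed or had an unadjusted p under 0.05 (limma). Their sum ran from 429.9 to 1504 in transgenic and from 377 to 527 in wild-type HSCs, the highest being transgenic array 5, on which Mpo read 8.63 against 5.41 to 6.93 on the other transgenic arrays. S100a8 differed by 1.24, and by 0.66 without transgenic array 5, on which it read 7.92. Cd14 differed by 0.30 and Prtn3 by 0.36. Mpo differed by 0.84, and by 0.36 without transgenic array 5. The dendritic cell list (7 measured, 4 positive, 184 to 217 in transgenic and 186 to 222 in wild-type HSCs) and the mast cell and basophil list (7 measured, 3 positive, 122 to 134 in transgenic and 122 to 139 in wild-type HSCs) had 0 members past the threshold or with an unadjusted p under 0.05 (limma). Their lowest p were those of Clec9a (-0.54), Ccr7 (0.15) and Xcr1 (0.14), and of Mcpt8 (-0.27), Fcer1a (-0.27) and Cma1 (0.10).

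Most erythroid and platelet markers read lower on the transgenic arrays. Of 7 measured erythroid genes 5 were negative, the list median being -0.38, and 0 passed (limma). The 4 with an unadjusted p under 0.05 were all negative, against 6.59% of all tested probe sets under 0.05 in either direction. Car2 differed by -0.38, Epor by -0.46 and Tfrc by -0.57. The erythroid sum was 1194 to 1414 in transgenic and 1462 to 1939 in wild-type HSCs. Car2, which averaged 9.80 log2 units in transgenic and 10.18 in wild-type HSCs, weighed most in it. All 6 measured megakaryocyte and platelet genes were negative (median -0.85), 5 of them with an unadjusted p under 0.05. This depends on how the lists were drawn. The platelet-biased marker Vwf, counted among the stem cell markers, differed by 1.28, and Itga2b of that same list by -0.78. Pf4, platelet factor 4, fell by 2.53 (limma, adjusted p = 0.0112). The list sum was 435 to 688 in transgenic and 930 to 1888 in wild-type HSCs. Of 8 endothelial genes 7 had positive changes with a median of 0.56, and 5, all positive, had an unadjusted p under 0.05. Ecscr and Egfl7 rose by 1.71 and 1.21 (limma, adjusted p = 0.000889 and 0.0260). The call of Egfl7 was lost on leaving out any 1 of transgenic arrays 3, 4 and 5 or wild-type arrays 2, 3 and 5 (adjusted p 0.0538 to 0.0813), while those of Cd53, Pf4 and Ecscr held without each array. The endothelial genes had a list sum of 1770 to 2163 in transgenic and 894 to 1257 in wild-type HSCs. Of 6 stromal genes 2 were positive and 0 passed or had an unadjusted p under 0.05 (limma), with Pdgfrb at 0.22, Col1a2 at -0.15 and Dcn at -0.10 and sums of 218 to 252 in transgenic and 204 to 260 in wild-type HSCs. The part of any of these cell types in the Cd48 and Ly9 values was not tested.

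**Figure D5:**
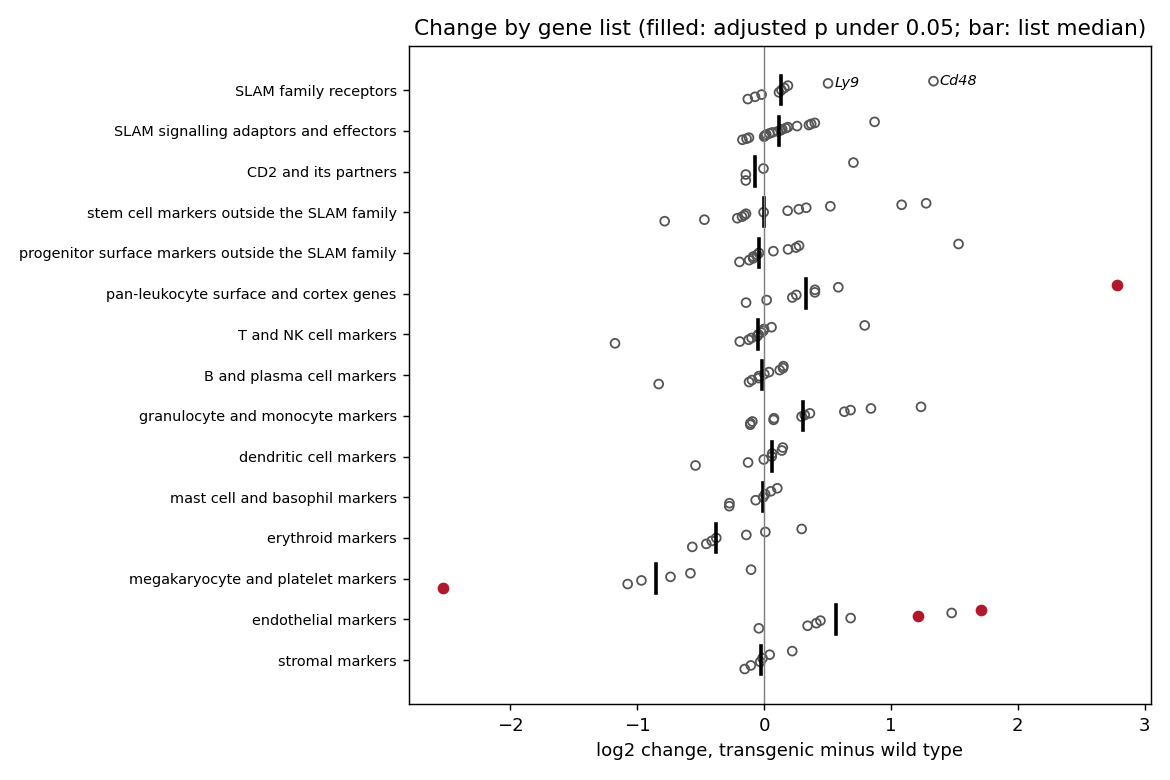
Log2 change, transgenic minus wild type, of every measured gene of the SLAM family and of 14 other lists; filled red points passed adjusted p under 0.05 (limma), open points did not, and black bars are list medians. The filled points are Cd53, Pf4, Egfl7 and Ecscr, and the family's 2 farthest points are Ly9 and Cd48.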

How the data were processed

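Expression was measured in 5 transgenic and 5 wild-type samples, grouped by their titles. The authors deposited log2 values, 1 per probe set and array. The submitters' processing notes name RMA (robust multi-array average), affy and limma; the sources used here give no versions. RMA removes background, gives the arrays 1 common distribution and compresses differences near the floor. With arrays, their number limits the precision.

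There were 35556 probe sets, of which 21789 had 1 gene symbol in the platform annotation, 1621 had several and 12146 are unnamed here. All 9 member symbols matched RefSeq (GRCm38.p6) by Entrez identifier. Transgenic minus wild-type differences of the 23410 probe sets with a symbol were fitted by limma 3.58.1 (lmFit and eBayes, two-sided; R 4.3.3). The threshold was 0.05 after Benjamini-Hochberg adjustment over these. The procedure was tested on data simulated with independent noise for each probe set and array. In the real data the first principal component of the departures from the group means held 40.1% of their variance. The simulation had no such shared spread, so it does not show how the calls fare under it. Levels are log2 values, and list sums add 2 to the power of each value, in linear intensity units. The brightest genes of a list therefore weigh most in its sum. Lists are described by counts and medians, with no set test.

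Named were all members, of each list the genes past the threshold or else up to 3 with the smallest p, chromosome neighbours within 5 genes, and the 3 genes most like Slamf1 and Cd48. Sh2d1a, Sh2d1b1, Sh2d1b2, Fyn, Cd2, Cd34, Mpo, Kit and Pea15a were added after their values were seen. The members and lists were chosen with earlier results of these data known. Alternatives were the replicate number as a block, other normalizations, filters and variance models, array weights, the array sets, leaving out each array (for list genes and for likeness chosen after seeing the data), and averaging the probe sets of a gene.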

Additional observations from a re-analysis of the deposited data

Results flagged for a closer look

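Slamf8 on transgenic array 2, at 5.47 log2 units, stood apart as the highest of its group: its gap to the next transgenic array was 0.724 of the group's range, above Dixon's critical value for 5 samples. The other transgenic arrays read 5.27 to 5.33, and the wild-type arrays, at 5.12 to 5.89, spanned this value. It was the 1 gap past the critical value among 18 checks, 9 genes in 2 groups, where chance passes about 1 in 20.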

How the results depend on the processing

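The count of 0 members past the threshold (limma) held in all 21 alternatives. Cd48 kept a positive change in its 20 alternatives (0.87 to 1.70, adjusted p 0.0563 to 0.804) and Ly9 in its 21 (0.37 to 0.74, adjusted p 0.0654 to 0.768); Slamf6 and Slamf7 kept their signs too. Within set A the sign turned for Cd244a (-0.11), Cd84 (-0.046), Slamf8 (0.065) and Slamf9 (0.045). Leaving out 1 array gave -0.049 to 0.31 for Slamf1, -0.015 to 0.25 for Cd244a, -0.14 to 0.050 for Slamf8 and -0.056 to 0.035 for Slamf9. The sign turned without wild-type array 4 for Slamf1, Slamf8 and Slamf9, without transgenic array 5 for Cd244a, and without transgenic array 3 or wild-type array 5 for Slamf9; the cause was not tested. Over all genes 33 probe sets passed, against 15 with all 35556 probe sets tested, 91 with the array set, formed from the same values, as a block, 4 and 6 within sets A and B with fewer arrays, and 15 to 71 without 1 array. With the brighter probe sets only, 3 members were tested, Slamf1, Ly9 and Cd84. Averaging the probe sets of a gene left each member's change as it was, since each has 1. Same-numbered arrays deviated together for 4 of 5 numbers (r 0.11 to 0.35) and not for the other (-0.14), and 1 of 10 arrays correlated best with its own number, so no pairing was assumed; the replicate block gave 33 probe sets and 0 members past the threshold.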
